A study of Mus musculus with 159 samples.

Results

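Collagens are the triple-helical proteins of the extracellular matrix, and the 43 collagen genes described here are all genes of the array annotation whose symbol is Col, a number, the letter a and a number, taken from probe sets with 1 gene symbol. They are 43 of the 18954 named genes measured, and each was read by 1 probe set. The tumors came from female offspring of the MMTV-PyMT mouse, which carries the polyoma middle T antigen under the mouse mammary tumor virus promoter in mammary epithelium, crossed with the outbred Diversity Outbred population of the 7th generation (Diversity Outcross x PyMT in the labels). They grew without treatment until about 100 days of age, and 159 tumors from 159 animals were each measured on 1 Affymetrix ST array. There was 1 group and no normal tissue, so every comparison below is between tumors, and every tumor shares the transgene. Values are log2 intensities, on which a difference of 1 is a doubling, and levels of different genes are not set against each other because probes differ in brightness.

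Each collagen is built of alpha chains, and a gene such as Col1a1 encodes the first chain of type I. Fibril-forming collagens give the interstitial stroma its tensile strength and are made mainly by fibroblasts. Type IV collagens form the sheet of the basement membrane under epithelium and around vessels, and type VI collagens form beaded filaments between cells and fibrils. FACIT collagens sit on the surface of fibrils, and transmembrane collagens span the cell membrane.

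Some of these genes lie side by side in the genome, so the sequences before their annotated starts are shown for the chains on which the results turn. In the RefSeq annotation of the mouse (GRCm38.p6) there were 8 adjacent pairs of collagen genes among protein-coding neighbors, holding 15 of the 43 genes. Col4a1 and Col4a2 on chromosome 8 lie on opposite strands with annotated starts 21 bases apart, so that their first bases overlap and the stretch shown for Col4a2 lies inside the annotated Col4a1 gene. Col6a1 and Col6a2 neighbor each other on chromosome 10. The 30 bases shown for Col4a2 end 8 bases before its start. The 150 bases shown for Col6a1, Col6a2, Col1a2 and Col17a1 end at the base before the start. All are RefSeq sequence (GRCm38.p6), written 5′ to 3′ along the gene. Capitals mark matches, on either strand, to the CCAAT box with the letters CCAAT, to the TATA box searched as TATAAA, and to the GC box searched as GGGCGG.
Col4a2 (chr8:11312768-11312797, plus strand): gctccCCAATttgttggcgctgccccctcc
Col6a1 (chr10:76726045-76726194, minus strand): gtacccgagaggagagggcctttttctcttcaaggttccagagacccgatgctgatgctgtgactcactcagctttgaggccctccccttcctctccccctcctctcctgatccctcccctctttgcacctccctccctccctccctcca
Col6a2 (chr10:76623405-76623554, minus strand): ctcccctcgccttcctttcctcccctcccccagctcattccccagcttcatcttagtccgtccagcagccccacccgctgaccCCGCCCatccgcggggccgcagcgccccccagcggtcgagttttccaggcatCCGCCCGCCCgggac
Col1a2 (chr6:4505468-4505617, plus strand): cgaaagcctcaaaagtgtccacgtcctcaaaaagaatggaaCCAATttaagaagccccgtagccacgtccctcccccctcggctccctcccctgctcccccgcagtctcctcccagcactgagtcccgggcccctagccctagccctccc
Col17a1 (chr19:47692043-47692192, minus strand): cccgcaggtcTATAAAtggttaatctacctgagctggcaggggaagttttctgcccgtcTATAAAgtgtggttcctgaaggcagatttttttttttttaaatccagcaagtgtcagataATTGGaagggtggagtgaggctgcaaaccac
Col4a2 held a CCAAT box beginning 32 bases before its start, and Col1a2 held 1 farther upstream. Col17a1 held a TATA box at 140 and at 91 bases before its start and a CCAAT box on the other strand at 31 bases. Col6a2 held a GC box on the other strand at 67, 15 and 11 bases, the last pair overlapping, and Col6a1 held none of the 3 motifs in these 150 bases. These matches describe the letters only and show no binding site. Promoter windows were at hand for 34 of the 43 genes. In the 250 bases before the start, the CCAAT box stood in 35.1% of 37 collagen windows and 33.8% of all 32851 windows. The TATA box stood in 13.5% and 12.4%, and the GC box in 59.5% and 32.7%.

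The arrays were alike in overall level, with array medians between 6.81 and 7.18. A background level of 5.76 was set as the 95th percentile of 1218 olfactory, vomeronasal and taste receptor genes, which mammary tumors should not express, and the mean of every collagen gene lay above it, as it did for 14247 of the 18954 named genes. The tissue label was met by luminal epithelium markers such as Krt8 and Epcam, with 9 of 9 above background and gene means from 7.88 to 12.37. Markers of other cells lay above background as well, with 10 of 10 measured fibroblast genes, 12 of 12 endothelial genes and 9 of 9 macrophage genes. So did 10 of 10 skeletal muscle genes and 4 of 8 cartilage genes. Since most named genes passed this level, passing it does not by itself show that a cell type was present. The arrays of 6 tumors correlated less with the rest (median r down to 0.895, against a typical 0.975), and without them the counts of collagen genes given below stayed within 1.5 times.

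Of the 43 collagen genes, 29 varied between tumors by more than the typical probe set, in a one-sided chi-square test of a gene's variance against the median variance of all probe sets (p under 0.05), beside 43.9% of all named genes. The median SD over tumors was 0.29 for collagen genes and 0.22 for all named genes. By class, 8 of 11 fibril-forming, 4 of 6 type IV, 5 of 6 type VI, 5 of 8 FACIT, 2 of 4 transmembrane, 2 of 2 multiplexin, 3 of 3 short chain and 0 of 3 other collagens passed. The 14 that did not pass were Col5a3, Col11a2, Col24a1, Col4a3, Col4a4, Col6a5, Col16a1, Col19a1, Col22a1, Col13a1, Col23a1, Col7a1, Col26a1 and Col28a1, with SDs from 0.12 to 0.22. In bulk tissue, fewer cells of a type and less RNA per cell cannot be told apart.

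**Figure D1:**
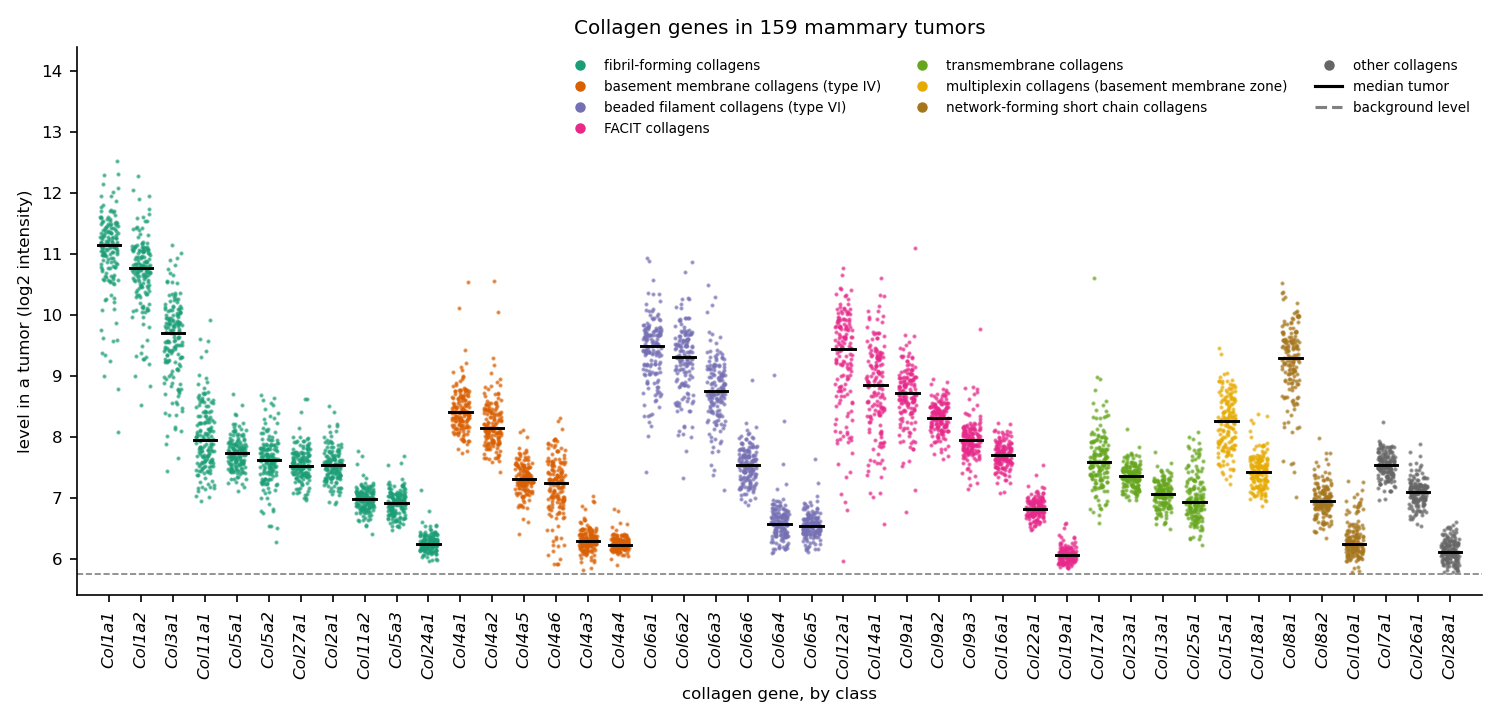
Level of each collagen gene in each of 159 tumors (log2 intensity, 1 point a tumor, colored by class), with the median tumor as a black bar and the background level of 5.76 as a dashed line. Col12a1 runs from 5.96 to 10.77, while Col4a4, between 5.91 and 6.82, and Col19a1 stay within narrow bands near the background line.

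The chains of the interstitial fibrils had wide ranges. Col1a1 ran from 8.08 in the lowest tumor over a median of 11.15 to 12.54 in the highest, with a mean of 11.04 ± 0.65 (SD, n = 159). Col1a2, its partner chain in type I collagen, ran from 8.52 over 10.77 to 12.29. Col3a1, which forms type III collagen of soft stroma, ran from 7.45 over 9.71 to 11.15. In all 3 genes more tumors fell over 1 unit below the median than rose over 1 unit above it: 13 against 4 for Col1a1, 11 against 4 for Col1a2 and 16 against 6 for Col3a1. The chains of type V collagen, which limits the diameter of fibrils, moved less, with Col5a1 between 7.11 and 8.71 (median 7.74) and Col5a2 between 6.28 and 8.69 (median 7.63). Col11a1, a chain of thin fibrils best known from cartilage, had the opposite tail, from 6.95 over 7.94 to 9.92, with 7 tumors over 1 unit above the median and 0 below. Its partner Col11a2 stayed between 6.42 and 7.77.

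The largest SD of the family belonged to Col12a1, a FACIT collagen of dense connective tissue, at 0.83. It ran from 5.96 over 9.45 to 10.77, a 28.1-fold span, and 27 tumors lay over 1 unit below the median while 2 lay as far above it. Col14a1, the related FACIT collagen of mature fibrils, had the next largest SD of 0.74, from 6.57 over 8.86 to 10.62. Its tumors were spread to both sides, with 18 over 1 unit below and 11 over 1 unit above the median. The chains of type IX collagen, which coats cartilage fibrils, were measured above background in these mammary tumors. Col9a1 ran from 6.77 over 8.72 to 9.67 and reached 11.10 in 1 further tumor. Col9a3 ran from 7.15 over 7.95 to 8.82 and reached 9.77 in 1 further tumor, and Col9a2 stayed between 7.64 and 8.95.

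The leading basement membrane chains had long upper tails. Col4a1 ran from 7.73 over 8.41 to 10.55 and Col4a2 from 7.43 over 8.15 to 10.56, and none of the 159 tumors lay over 1 unit below either median. Only 3 tumors lay over 1 unit above the median of Col4a1 and 4 above that of Col4a2, so these tails rest on few tumors. Col4a6, a chain of epithelial and smooth muscle basement membranes, had the largest SD of the type IV genes (0.48) and the opposite tail, with 9 tumors over 1 unit below its median of 7.25 and 2 above it. Col4a5, its neighbor and partner chain, ran from 6.41 over 7.30 to 8.11. Col4a3 and Col4a4, chains known from kidney and other specialized basement membranes, stayed between 5.83 and 7.03 and between 5.91 and 6.82, and neither passed the variation test.

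Among type VI collagens the classical chains ranged widely, Col6a1 from 7.42 over 9.49 to 10.94, Col6a2 from 7.32 over 9.31 to 10.87 and Col6a3 from 7.13 over 8.75 to 10.49. Their paralogs on chromosome 9 ranged less. Col6a5 did not pass the variation test, and Col6a4 had a median of 6.57 with 2 tumors over 1 unit above it, at 9.02 and 8.26. Col8a1, a short chain collagen found in vessel walls, ran from 7.01 over 9.30 to 10.52, and its partner Col8a2 from 6.34 over 6.95 to 7.99. Col10a1, the collagen of hypertrophic cartilage, lay between 5.78 and 7.27, close to background in the lowest tumors. The multiplexins, which carry collagen stretches at the basement membrane zone, ran from 7.22 over 8.27 to 9.45 (Col15a1) and from 6.86 over 7.43 to 8.38 (Col18a1). Col17a1, the hemidesmosome collagen of basal epithelial cells, lay between 6.60 and 8.99 around a median of 7.59 in all tumors but that of animal 14552, where it stood at 10.61 on a low-correlation array. Col25a1, a transmembrane collagen known from neurons, ran from 6.23 over 6.93 to 8.09.

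The tumors at the extremes were few. The tumor of animal 14879 was the highest of all for 9 collagen genes, among them Col1a1, Col1a2, Col3a1, Col5a1 and Col6a3. The tumor of animal 14917 was the lowest for 10, among them Col1a2, Col3a1, Col6a1, Col6a2 and Col14a1, and it had the lowest fibroblast marker score of all tumors (-2.99) and an endothelium score of -2.22. The score is the mean of standardized levels over a list of markers without collagens, so that 0 is the average tumor. The tumor of animal 15029 was highest for 8 genes, of which 7 had not passed the variation test (Col19a1 and Col22a1 among them), and its score for the background receptor genes was 1.73.

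The tumor of animal 14864 stood apart in another way, and its array was 1 of the 6 with low correlation. It had the lowest value of Col1a1 (8.08, a difference of -3.06 from the median tumor) beside an average Col1a2 (10.77), and the lowest Col12a1 (5.96) and Col6a3 (7.13). It also had the highest Col4a1 (10.55), Col4a2 (10.56), Col9a1 (11.10) and Col11a1 (9.92), the last pair encoding chains of cartilage fibrils. Its fibroblast score was -1.51. Its luminal epithelium score was -5.90, with Krt8 at 10.39 against a median of 12.41 and Elf5 at 8.31 against 11.12. Of 8 cartilage genes, Cnmd stood at 12.12 (mean of all tumors 6.82), Comp at 11.55 (6.34), Hapln1 at 10.02 (4.99) and Snorc at 9.56 (6.97), while Acan, Matn1 and Matn3, which define cartilage as well, were at 5.84, 5.73 and 5.73, close to the background level of 5.76. Sox9, the regulator of cartilage genes, stood at 10.13, below its mean of 10.89. What part other cells have in these values was not tested. The tumor of animal 14553, with a median r of 0.956 to the other arrays, had the next highest Col4a1 (10.11), the highest Col9a3 (9.77) and Col2a1 (8.50), and raised values of part of the cartilage list. Cnmd stood there at 11.01, Comp at 9.41, Snorc at 8.87, Hapln1 at 7.01, Acan at 6.32 and Sox9 at 11.19, while Matn1 (5.53) and Matn3 (5.57) lay below the background level.

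Partner chains were compared over the 159 tumors to ask which collagens vary together (15 pairs, permutation tests with 100000 permutations, two-sided, and adjusted p-values from a limma fit of all named genes on the first gene of a pair). Col6a1 and Col6a2 had the highest correlation of any pair, with Pearson's r = 0.98 and Spearman's rho = 0.97 (adjusted p = 3.8e-109, permutation p = 1e-05 for both, which is the lowest possible). Without the 2 tumors farthest from the median of Col6a1, r was 0.98, and it ran from 0.97 to 0.99 within 5 blocks of animals with neighboring numbers, each of 26 tumors or more. Col4a1 and Col4a2 reached r = 0.94 and rho = 0.90 (p = 1e-05 for both, adjusted p = 1.8e-70), with 0.91 without the 2 farthest tumors and 0.81 to 0.99 within blocks. In each of these pairs the partner was the gene most like the other among 18953.

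Col1a1 and Col1a2, on different chromosomes, were also each other's closest gene, at r = 0.92 and rho = 0.96 (p = 1e-05 for both, adjusted p = 6.7e-61). The value of r rose to 0.98 without the 2 tumors farthest from the Col1a1 median and to 0.99 without the tumor of animal 14864 alone, and it ran from 0.65 to 0.99 within blocks. Without all 6 low-correlation arrays r was likewise 0.99.

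**Figure D2:**
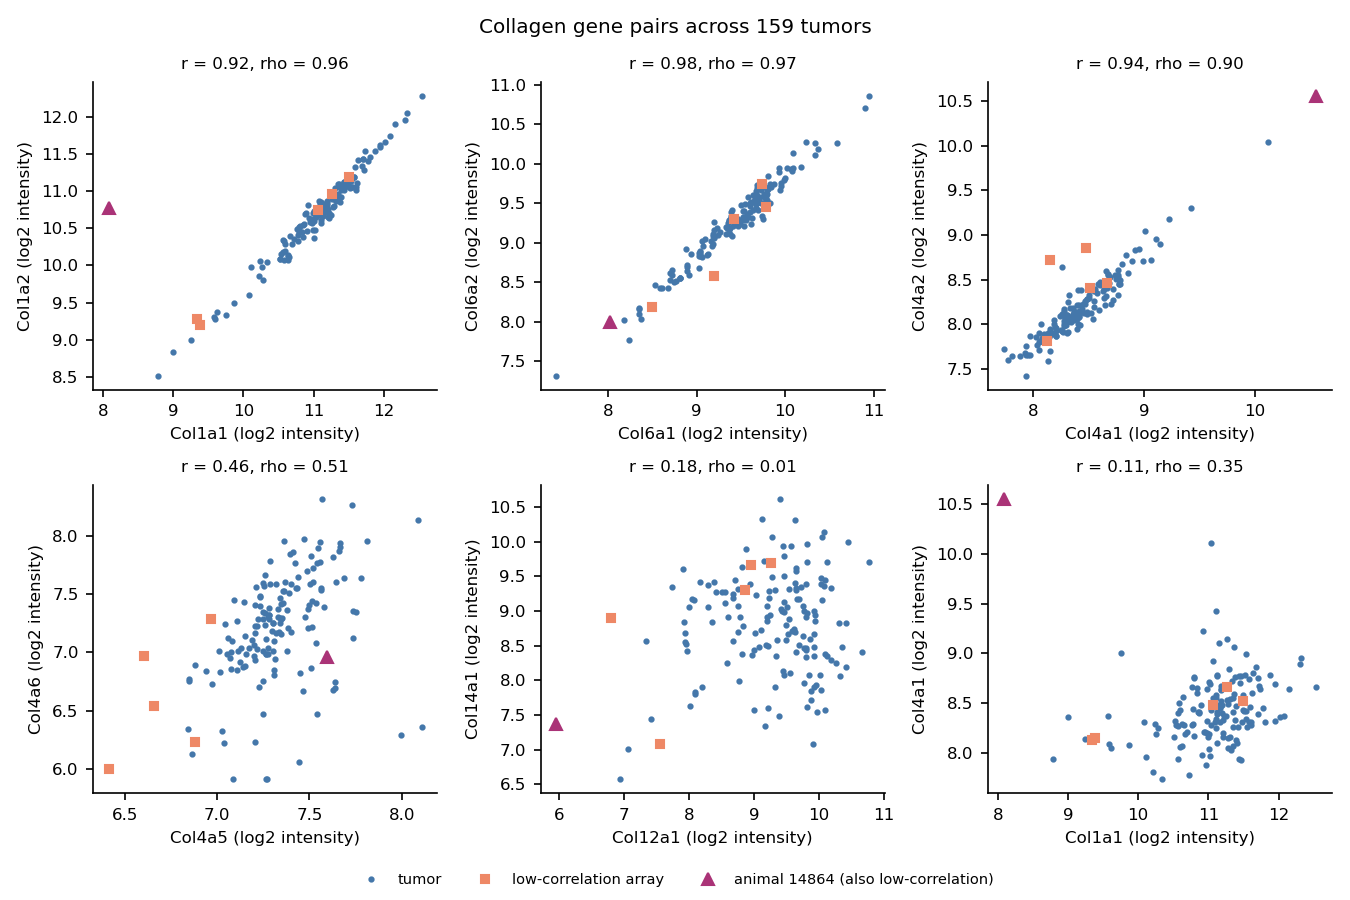
Collagen gene pairs across 159 tumors, both axes in log2 intensity, with the 6 low-correlation arrays as orange squares except the tumor of animal 14864, the purple triangle. Partner chains of types I, VI and IV lie on narrow lines (r from 0.92 to 0.98), with the tumor of animal 14864 far from the type I line, Col4a5 with Col4a6 reaches 0.46, and Col12a1 with Col14a1 (r = 0.18) and Col1a1 with Col4a1 (r = 0.11) form clouds.

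Of the 15 pairs, 9 had r of at least 0.5 with an adjusted p under 0.05. Apart from those above they were Col1a1 with Col3a1 (0.89), Col6a1 with Col6a3 (0.85), Col5a1 with Col5a2 (0.80), Col3a1 with its neighbor Col5a2 (0.80), Col4a3 with Col4a4 (0.79) and Col9a1 with Col9a3 (0.58). The low pair Col4a3 and Col4a4 also moved with the background receptor score (r = 0.58 and 0.63), and its r was 0.67 with that score removed. Col4a5 and Col4a6, adjacent on the X chromosome, reached 0.46 (rho = 0.51, p = 1e-05 for both, adjusted p = 4.5e-08). Col15a1 and Col18a1, the multiplexins, reached 0.499 and Col8a1 and Col8a2 0.31, both below the limit of 0.5. Of the 8 adjacent pairs 5 had r of at least 0.5, and the others were Col4a5 with Col4a6, Col6a4 with Col6a5 (0.33) and Col9a1 with Col19a1 (0.15).

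The FACIT collagens Col12a1 and Col14a1 had a correlation that did not pass after adjustment over all named genes. Their r was 0.18 and rho 0.01 (p = 0.026 and 0.87, adjusted p = 0.069), with 0.14 without the 2 farthest tumors and -0.01 to 0.42 within blocks. With blocks of animal numbers as a term it did pass, at r = 0.21 (adjusted p = 0.034). Col11a1 and Col11a2, chains of type XI collagen, had r = 0.12 (rho = 0.10, permutation p = 0.14 and 0.19). Col1a1 and Col4a1, the leading stromal and basement membrane chains, had r = 0.11 (p = 0.15) but rho = 0.35 (p = 2e-05). Without the tumor of animal 14864, r was 0.34, with an adjusted p of 2.1e-04. With that tumor kept in, r ran from -0.61 to 0.56 within blocks.

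Across all 903 pairs of collagen genes the median r was 0.24, and 199 pairs reached 0.5. Over all pairs of named genes the median was -0.01, and 3.12% reached 0.5. Within the fibril-forming class 22 of 55 pairs reached 0.5, and within type IV 2 of 15. Some of the high pairs were among dim genes. Col19a1, Col22a1, Col24a1, Col4a3 and Col4a4, with means from 6.07 to 6.83, had r from 0.72 to 0.82 among themselves and from 0.54 to 0.68 with the background receptor score. With that score removed their median r was 0.66 in place of 0.79. They are 11.6% of the collagen genes, beside 11.9% of all named genes with an r of at least 0.5 to this score, and the part of background in their shared variation was tested no further. High pairs also stood among other genes that had not passed the variation test. Col22a1 had r = 0.86 with Col11a2 and with Col13a1, and Col11a2 had 0.83 with Col13a1. With the background receptor score Col11a2 had r = 0.42 and Col13a1 0.37. The high collagen pairs thus include many among genes of small variation.

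**Figure D3:**
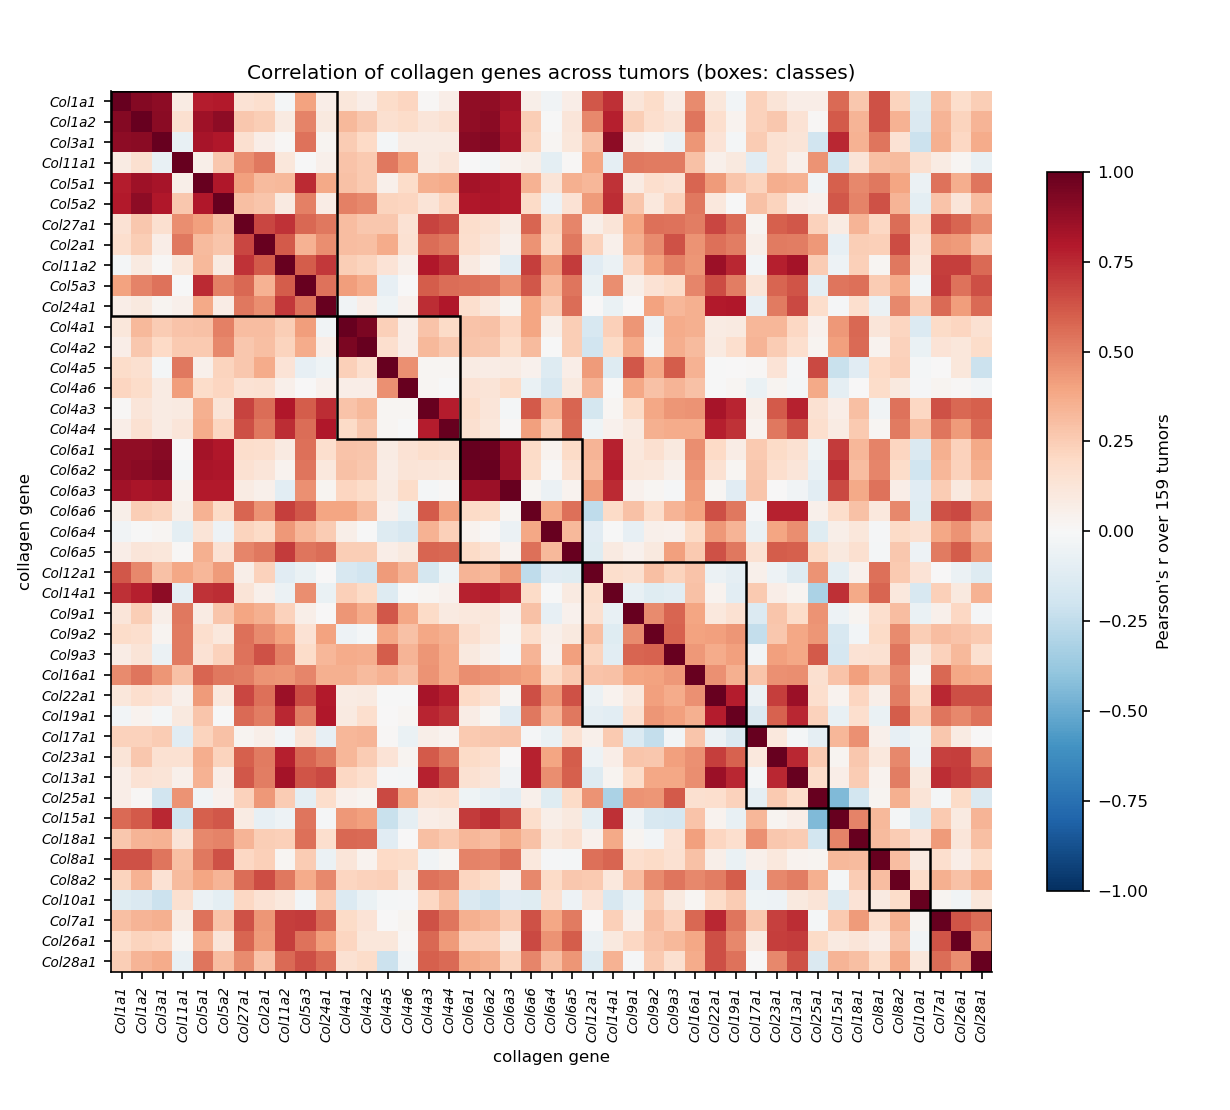
Pearson's r over 159 tumors for every pair of the 43 collagen genes (red positive, blue negative), ordered by class, with each class boxed. A block of Col1a1, Col1a2, Col3a1, Col5a1, Col5a2, Col6a1, Col6a2 and Col6a3 with Col14a1 and Col15a1 reaches 0.98. The type IV box holds 3 separate pairs (r = 0.94, 0.79 and 0.46), and the lowest value is -0.44 for Col15a1 with Col25a1. Genes that did not pass the variation test also form high pairs, such as Col11a2 with Col22a1 (0.86).

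A fit of every named gene on Col1a1 asked which collagens follow the main stromal chain. With r of at least 0.5 and an adjusted p under 0.05 (limma, Benjamini-Hochberg over 18953 genes), 11 of the other 42 collagen genes followed it and 0 went against it, beside 1.12% of all named genes that followed. After the partner chain Col1a2 and Col3a1, they were Col6a2 (0.89), Col6a1 (0.88), Col6a3 (0.84), Col5a2 (0.79), Col5a1 (0.79), Col14a1 (0.73), Col8a1 (0.63), Col12a1 (0.62) and Col15a1 (0.56). The slope of Col14a1 was 0.54 ± 0.04 (SE) log2 units per SD of Col1a1, and that of Col12a1 was 0.52 ± 0.05. The median r of the 42 collagen genes was 0.18, and that of all named genes was -0.02.

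Fewer collagens followed Col4a1, namely 3 of 42 beside 1.35% of all named genes: Col4a2, Col18a1 (r = 0.57), a basement membrane zone collagen whose cleaved end is endostatin, and Col5a2 (0.50). Without the tumor of animal 14864 there were 4. Of the 42 genes 28 had a positive slope with an adjusted p under 0.05, beside 12.5% of all named genes, and their values of r were mostly small (median of the 42 genes 0.25, of all named genes -0.01).

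Of 31 measured genes of collagen synthesis, 7 followed Col1a1: the cross-linking oxidases Lox (0.83) and Loxl1 (0.71), the procollagen C-proteinase Bmp1 (0.67) and its enhancer Pcolce (0.75), the collagen-binding Sparc (0.72), the prolyl hydroxylase subunit P4ha3 (0.71) and P3h3 (0.59). With Col4a1 there were 6: Colgalt2 (0.64), which adds sugar to hydroxylysine, P3h1 (0.63) and Crtap (0.56), partners in prolyl 3-hydroxylation, P3h3 (0.62), the lysyl hydroxylase Plod1 (0.52) and the collagen chaperone Serpinh1 (0.51). P3h3 was on both lists. Without the 2 tumors farthest from the Col4a1 median, P3h1 (0.51) and P3h3 (0.56) stayed at 0.5 or more with Col4a1, Crtap (0.41) and Serpinh1 (0.44) did not, and Sparc reached 0.51. Without the 2 tumors farthest from the Col1a1 median, P3h1, P3h3 and Sparc also reached 0.5 with Col1a1 (0.64, 0.72 and 0.79). The mean of Colgalt2 (5.73) lay below the background level, its rho with Col4a1 was 0.38 and its r was 0.41 without the 2 farthest tumors. Plod1 had r = 0.32 without those tumors and rho = 0.19, and its r with Col1a1 was -0.23. The difference between a gene's relations to Col1a1 and to Col4a1 was not tested.

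Receptors and basement membrane genes came next. Of 9 collagen receptors, the integrin chain Itga11 (0.70) and the endocytic receptor Mrc2 (0.55) followed Col1a1, and Mrc2 (0.65) and the receptor kinase Ddr2 (0.51) followed Col4a1. The lowest r of Mrc2 with Col1a1 within a block was -0.25. Of 15 basement membrane genes, 6 followed Col4a1, led by the laminin chain Lamc1 (0.84) and by Nid2 (0.70), Lamb1 (0.58), Hspg2 (0.57), Pxdn (0.56) and Lama4 (0.55). With Col1a1 there were 5: Sparc, Nid1 (0.58), Hspg2 (0.57), Lama2 (0.55) and Lamb1 (0.52). Without the 2 tumors farthest from the anchor's median, Lox had r = 0.43 with Col4a1 (rho = 0.47 over all tumors) and Lamc1 had r = 0.495 with Col1a1 (rho = 0.43 over all tumors).

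**Figure D4:**
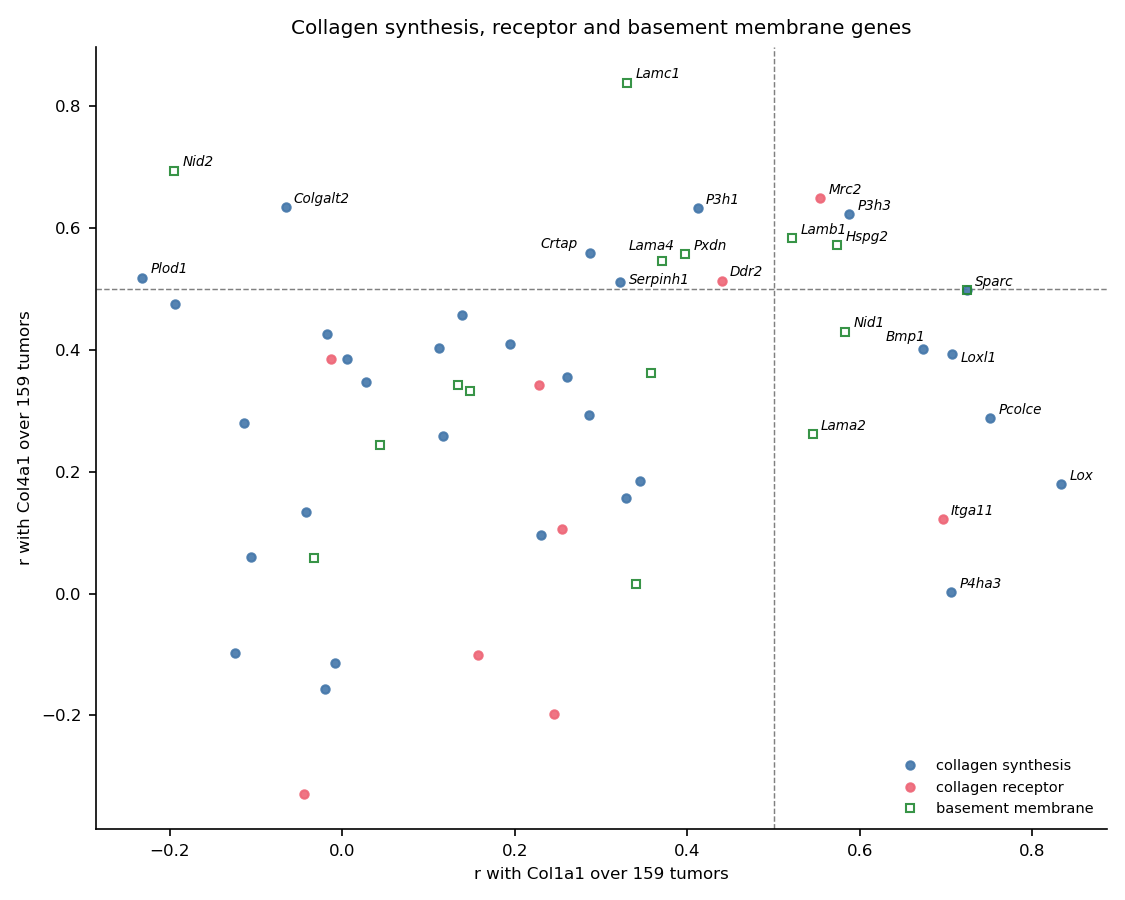
Pearson's r with Col1a1 (x axis) and with Col4a1 (y axis) over 159 tumors for measured genes of collagen synthesis, collagen receptors and basement membranes, with dashed lines at 0.5. Lox has the highest r with Col1a1 (0.83, and 0.18 with Col4a1) and Lamc1 the highest with Col4a1 (0.84, and 0.33 with Col1a1).

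The genes most like a collagen, other collagens aside, were named by r over the 159 tumors. Col4a1 was closest to Lamc1 (0.84), St3gal2 (0.77) and the protease Adamts9 (0.74), and Col6a1 to Bicc1 (0.85) and Cpxm1 (0.85). For Col1a1 they were the collagen-degrading protease Ctsk (0.86), the mesenchymal cadherin Cdh11 (0.83), Lox, Cpxm1 (0.83), Mfap4 (0.82) and the fibril proteoglycan Lum (0.81). Col15a1 was closest to Lama2 (0.83), Jcad (0.83) and Ebf1 (0.82). Col17a1 was closest to the laminin chain Lama3 (0.86), the basal regulator Trp63 (0.80) and the basal keratin Krt5 (0.80). For Col12a1, added after its values were seen, they were Kif26b (0.78), Lrrc15 (0.74) and the matrix protein Tnc (0.73), with P4ha3 next (0.70).

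Each collagen was then set against marker scores of 5 kinds of cells or states, 1 score at a time. The fibroblast list holds no collagen but includes matrix genes such as Lum, whose r with Col1a1 was 0.81. Fibroblast content and shared expression of matrix genes therefore cannot be told apart by this score. With the fibroblast score 11 of 43 rose (r of at least 0.5, adjusted p under 0.05), beside 4.0% of all named genes: Col3a1 (0.91), Col6a2 (0.89), Col14a1 (0.88), Col6a1 (0.85), Col1a2 (0.84), Col1a1 (0.80), Col5a2 (0.79), Col6a3 (0.78), Col15a1 (0.76), Col5a1 (0.70) and Col8a1 (0.53). With the endothelium score 9 of 43 rose, beside 5.13% of all named genes, led by Col15a1 (0.81), Col14a1 (0.67) and Col3a1 (0.65). With the adipocyte score 3 rose beside 3.58%, namely Col15a1 (0.75), Col3a1 (0.54) and Col14a1 (0.50). Col25a1 fell with it (r = -0.53), beside 0.200% of all named genes. With the basal epithelium score only Col17a1 rose (0.83), beside 2.21%, and with the proliferation score 0 of 43 rose, beside 4.94%. In the limma fit on the proliferation score, 4 collagen genes rose and 18 fell at an adjusted p under 0.05 without the limit on r, beside 27.7% and 34% of all named genes. Col17a1 kept r = 0.76 with the basal score without the 2 tumors of farthest score, which include that of animal 14552 (score 4.12).

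The fibroblast and endothelium scores themselves had r = 0.72 over tumors, so both were entered in a joint fit with the other 3 scores, and the difference of their coefficients was tested for every named gene. In 3 of 43 collagen genes the endothelium coefficient was the larger, no larger a share than the 7.92% of all named genes, so the count shows nothing particular to collagens. They were Col4a2 (difference 0.33 ± 0.08 SE log2 units per SD of score, adjusted p = 0.0014), Col4a1 (0.26 ± 0.07, adjusted p = 0.0066) and Col18a1 (0.26 ± 0.05, adjusted p = 2.0e-05). With the endothelium score alone, Col4a1 (r = 0.48) and Col4a2 (0.47) lay below the limit of 0.5 and Col18a1 (0.53) above it. Tumors of odd animal numbers alone gave 0 such genes and tumors of even numbers 1. The differences of Col4a1, Col4a2 and Col18a1 were 0.22, 0.28 and 0.19 in odd and 0.26, 0.35 and 0.33 in even numbers. These genes were picked from the same tumors, so the signs in the subsets are no separate check on them. The smooth muscle and myoepithelium score moved with these genes too, at r = 0.65 for Col4a1, 0.70 for Col4a2 and 0.41 for Col18a1 (rho = 0.60, 0.68 and 0.42, p = 1e-05 for all, chosen among 48 relations after the values were seen). With it as a further term the difference again passed in the same 3 genes (adjusted p from 3.2e-05 to 0.0060). The luminal epithelium score ran against them, at r = -0.51 for Col4a1, -0.57 for Col4a2 and -0.22 for Col18a1 (rho = -0.22, -0.31 and -0.08). Without the tumor of animal 14864 these were -0.30, -0.40 and -0.25, and the part of luminal epithelium in the differences was not tested.

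In 15 collagen genes the fibroblast coefficient was the larger, beside 6.89% of all named genes. The differences were largest for Col1a1 (fibroblast coefficient 0.67 ± 0.04, endothelium -0.05 ± 0.05), Col12a1 (0.62 ± 0.07 and -0.09 ± 0.08), Col1a2 (0.61 ± 0.03 and -0.01 ± 0.04) and Col3a1 (0.62 ± 0.03 and 0.01 ± 0.04). The others were Col14a1, Col6a2, Col6a1, Col8a1, Col6a3, Col25a1, Col5a2, Col8a2, Col4a5, Col5a1 and Col16a1. The macrophage score had r = 0.76 with the fibroblast score, and r with it was 0.73 for Col14a1, 0.64 for Col3a1, 0.62 for Col5a2, 0.62 for Col15a1 and 0.59 for Col1a2. With the macrophage score as a further term, chosen after the values were seen, the fibroblast coefficient was the larger in 17 collagen genes and the endothelium coefficient in 3. Without that term neither was larger in 25 genes. One of these, Col15a1, had both coefficients above 0, at 0.15 ± 0.03 and 0.16 ± 0.03, and an adipocyte coefficient of 0.13 ± 0.03.

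**Figure D5:**
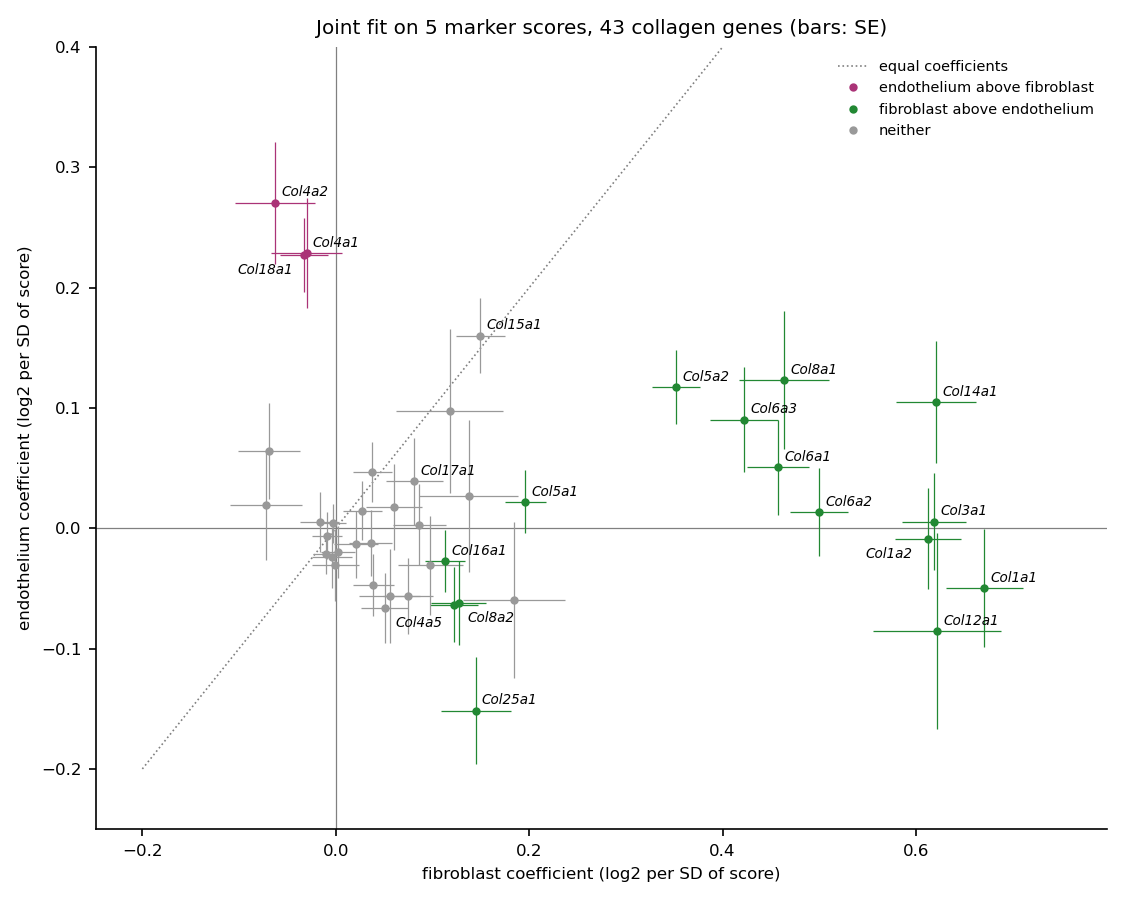
Fibroblast (x axis) and endothelium (y axis) coefficients of the 43 collagen genes in the joint fit on 5 marker scores, in log2 units per SD of score, with SE bars. Col4a1, Col4a2 and Col18a1 lie above the line of equal coefficients, the interstitial chains lie far below it, and Col15a1 lies on it.

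The scores of the joint fit overlapped, and the adipocyte score had r = 0.75 with the endothelium score and 0.60 with the fibroblast score. A coefficient of the joint fit can therefore differ from the relation with 1 score alone. Some of the fibroblast-led genes of the joint fit had r below 0.5 with the fibroblast score alone. Among them were Col16a1 (0.36), Col8a2 (0.11), Col4a5 (0.001) and Col25a1 (-0.18), the last with an endothelium coefficient of -0.15 ± 0.04. Col12a1 was likewise fibroblast-led only in the joint fit, since its r with the fibroblast score alone was 0.23. Its adipocyte coefficient was -0.57 ± 0.07 (adjusted p = 1.6e-11), the most negative of the family, and its r with the adipocyte score was -0.37 (rho = -0.42, p = 1e-05 for both, adjusted p = 1.6e-05, -0.45 to -0.24 within blocks). Col14a1 had an r of 0.50 with the same score. Col12a1 and Col14a1 thus had opposite signs against this score, a difference that was not itself tested. Col3a1 paired with Col14a1 at r = 0.89 (rho = 0.87) and with Col12a1 at 0.29 (rho = 0.07, 0.19 without the 2 farthest tumors).

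A further set of collagens paired outside the stromal block, and 14 pairs in all were chosen after the values were seen. Col4a5 and Col25a1 had r = 0.66 (rho = 0.67, adjusted p = 2.7e-18, 0.56 to 0.78 within blocks). Col4a5 had r = 0.62 with Col9a1 (rho = 0.53), Col25a1 had 0.61 with Col9a3 (rho = 0.65), and Col2a1, the main cartilage collagen, had 0.64 with Col9a3 (rho = 0.57). All these had a permutation p of 1e-05. Col25a1 ran against Col15a1, with r = -0.44 (rho = -0.46, p = 1e-05 for both, adjusted p = 5.9e-08, -0.56 to -0.39 within blocks), the lowest r of any pair. Col9a3 and Col2a1 had r of 0.70 with the cartilage score (rho = 0.66 and 0.64), and r stayed at 0.70 and 0.68 without the tumor of animal 14864. Without the 2 tumors of farthest score r was 0.64 for each, and the lowest r within a block was 0.37 and 0.35. Col9a3 and Col2a1 were 2 of 13 collagen genes with an r of at least 0.5 to this score (adjusted p under 0.05), beside 1.65% of all named genes. Without the tumor of animal 14864 there were 10. Next came Col27a1 (0.65), Col11a2 (0.65), Col4a3 (0.64), Col19a1 (0.59) and Col4a4 (0.59). Of these, Col4a3, Col19a1 and Col4a4 also moved with the background receptor score (r = 0.58, 0.66 and 0.63). Col22a1, at 0.51 with the cartilage score, had r = 0.54 with the background receptor score, and Col11a2 had 0.42. Among the 13 genes, Col11a2, Col4a3, Col4a4, Col19a1, Col22a1 and Col23a1 had not passed the variation test. Only 4 of the 8 genes of the cartilage score had a mean above background. The others, Acan, Matn1, Matn3 and Hapln1, weigh equally in it, so part of the score rests on genes with means below background.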

How the data were processed

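Total RNA of 159 tumors, 1 per animal, was hybridized to Affymetrix ST arrays. The authors used BRB ArrayTools 4.3.2 with the median array as the normalization reference and applied no batch correction. The deposited table holds log2 intensities, and how background was corrected and probes were summarized is not stated in the sources used here. Each array was then shifted by its median difference from a median array. Probe sets numbered 20718, of which 18965 had 1 symbol, 688 several and 1065 none listed, and the brightest per gene was kept. Fits used limma 3.58.1 in R 4.3.3 with Benjamini-Hochberg adjustment over all named genes, and were tested on simulated data. Precision is limited by the number of arrays. Family relations between the animals were not among the labels used here, and all tests treated the tumors as independent. Values of the lowest, median and highest tumor were given for the collagens of highest mean and largest SD in each class and for partner chains. Other genes were named only from marker, synthesis, receptor and basement membrane lists, or among the 8 of highest r to Col1a1, Col4a1, Col6a1, Col15a1 and Col17a1 (Col12a1 was added later). Blocks share the first 3 digits of the animal number and are no known batch. Alternatives covered normalization, probe sets, arrays, tumors, limits and scores. The members and lists were chosen with earlier results of these data known. Col20a1 was not analysed here.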

Additional observations from a re-analysis of the deposited data

How the results depend on the processing

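The count of 29 varying collagen genes stayed within 1.5 times under every alternative run: values as deposited, quantile normalization, other probe set, array and tumor choices, adjusted p, robust variance and genes above background alone. So did the 11 genes following Col1a1, the 11 rising with the fibroblast score, Col17a1 with the basal score, 0 with the proliferation score and the 9 pairs. With a limit of 0.4 on r, 6 genes followed Col4a1, 14 rose with the endothelium score and 5 with the adipocyte score. With 0.6 these were 1, 5 and 1, and 0 fell with the adipocyte score. By Spearman's rho 5 followed Col4a1. In odd-numbered animals 1 gene rose with the adipocyte score and in even-numbered ones 6, where 0 fell. Without the 41 tumors high in skeletal muscle or T cell score 0 fell as well. The endothelium coefficient was the larger in 6 collagen genes after quantile normalization, in 0 in odd and 1 in even animals, and the fibroblast coefficient in 9 in even animals. Each subset of animals held 80 or 79 tumors, fewer than the 159 of the full fit, and the cause of the other shifts was not tested. The r of Col1a1 with Col4a1 passed without the low-correlation arrays (0.32), and that of Col12a1 with Col14a1 passed with blocks of animal numbers as a term (0.21). No called value changed sign under these alternatives. Counted over single results and alternatives, an adjusted p under 0.05 was lost in 23 cases and gained in 6, and 1010 cases stayed the same. Within blocks of animal numbers signs did change, for Col1a1 with Col4a1 (-0.61 to 0.56), Col12a1 with Col14a1 (down to -0.01) and Mrc2 with Col1a1 (down to -0.25). The blocks kept the tumor of animal 14864, and its part in these sign changes was not tested. No paired analysis was possible because there is 1 group. The alternatives without the tumor of animal 14864, with the background score removed from pairs and with the smooth muscle or macrophage term were chosen after seeing the data.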
